A study of Cavia porcellus with 30 samples.

Results

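Of 25824 transcripts listed in guinea pig liver, 36 had a higher mean than vehicle livers at 9 h after a high dose of thioacetamide and a lower mean than vehicle livers at 33 h. They were chosen from mean TPM (a transcript's share of the sequenced RNA, corrected for its length) over 5 animals per group, with 0.1 added to each mean. The high dose mean had to be at least 1.5 times the vehicle mean at 9 h and at most 0.67 times the vehicle mean at 33 h, and the mean over the 10 vehicle animals had to reach 1 TPM. In all, 13267 transcripts met the last condition. The low dose livers took no part in the choice, and whether they followed the same course is the question addressed here.

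Liver RNA came from 30 Hartley guinea pigs, an outbred laboratory breed, in 6 groups of 5. Animals were given saline vehicle at 3 ml/kg, thioacetamide at 25 mg/kg (low dose) or thioacetamide at 100 mg/kg (high dose), and livers were sampled at 9 h or 33 h. The doses were chosen to give graded liver injury, and the labels give no age, sex or route. A library held 21352824 to 33842322 estimated counts.

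Thioacetamide is a liver toxicant. Oxidation by hepatic enzymes turns it into reactive products, which damage mainly the hepatocytes around the central vein. Injured liver first switches on stress and repair programmes and later, while surviving cells divide, can carry less RNA for the specialised functions of the hepatocyte. The tables name transcripts by Ensembl identifier alone and do not pair them with genes. The reference table used here, with 37416 genes, matched 0 of the identifiers, so no function is assigned and the liver label was not checked against marker genes. Members are named by identifier for 4 of them, picked by a fixed rule, and otherwise by their length. In whole tissue, fewer cells of a type and less RNA per cell cannot be told apart.

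The 36 members were a small group. Their median over the vehicle animals was 6.11 TPM, against 7.37 TPM over all transcripts of at least 1 TPM. By vehicle mean, 15 members lay at 1 to 5 TPM, 10 at 5 to 10 TPM, 7 at 10 to 50 TPM and 4 above 50 TPM. The 15 were 41.7% of the members, and 38.8% of all transcripts of at least 1 TPM lay at 1 to 5 TPM. Members ran from 258 to 5482 bases with a median of 1576, against a median of 2354 bases for all transcripts of at least 1 TPM. Short transcripts made up more of the members: 8 of 36 (22.2%) were under 500 bases, against 4.43% of all transcripts of at least 1 TPM. Effective length is estimated least well for such short models. In 12 members (33.3%) all 30 estimated counts were whole numbers within 1e-06, against 42.0% of all transcripts of at least 1 TPM. A count that is not whole shows that reads were divided with another transcript. A pair of members, both of 1586 bases, held identical values in all 30 animals and so gives 1 set of measurements.

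The ratio of high dose to vehicle had a median of 1.78 at 9 h and of 0.433 at 33 h. Single members ran from 1.52 to 11.0 at 9 h and from 0.00988 to 0.660 at 33 h. These values chose the members and are given as a description. At the threshold for 9 h, the nearest member stood at 1.52 and the nearest transcript outside at 1.497. At the threshold for 33 h the corresponding values were 0.660 and 0.674, and at the vehicle minimum they were 1.13 and 0.926 TPM. Few members had groups that separated fully. All 5 high dose animals were above all 5 vehicle animals at 9 h in 5 of 36 members, beside 8.73% of all tested transcripts. At 33 h all 5 high dose animals were below all 5 vehicle animals in 12 of 36, beside 5.1% of all tested transcripts. Both separations held in 2 members, and neither held in 21. The rule favours both separations, so these shares too are a description and cannot be read against the background.

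The vehicle groups themselves differed for most members. The vehicle mean at 33 h was above that at 9 h in 32 of 36, with a median ratio of 2.0, while the median over all transcripts of at least 1 TPM was 0.955. A ratio of at least 1.5 was found in 25 members (69.4%) and in 1.95% of all transcripts of at least 1 TPM. Vehicle means stand in the denominators of the rule, so low values at 9 h and high values at 33 h helped a transcript to qualify. In 19 of 36 members the high dose mean at 9 h was above its own vehicle group but below the vehicle mean at 33 h.

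**Figure D1:**
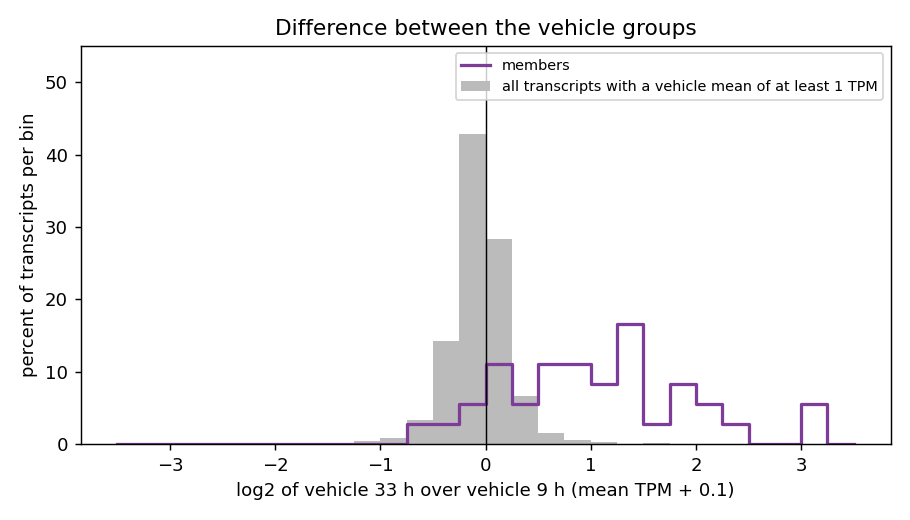
Distribution of the log2 ratio of the vehicle mean at 33 h to that at 9 h (mean TPM + 0.1), in bins of 0.25, as percent of transcripts per bin. Grey bars are the 13267 transcripts with a vehicle mean of at least 1 TPM and centre near 0, and the line is the 36 members, of which 32 lie above 0.

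A stricter reading takes members whose high dose mean was above both vehicle means at 9 h and below both at 33 h. There were 15 of these, with a vehicle ratio (33 h over 9 h) of 0.674 to 1.73. The other 21 members had vehicle ratios of 1.67 to 8.79. This division was made after seeing the values and no test is attached to it. Among the 15, the low dose means were also above both vehicle means at 9 h and below both at 33 h in 9. The same vehicle means picked the 15, which favours this pattern, and its share over all transcripts was not counted.

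The most abundant member was ENSCPOT00000013101.3, of 1368 bases. In vehicle livers at 9 h it measured 454, 113, 137, 74.7 and 339 TPM, and in high dose livers at 9 h 413, 391, 374, 367 and 387 TPM. The 5 high dose animals were thus close together (386 ± 18.1 TPM, SD, n = 5), within the wide vehicle range (224 ± 165 TPM, SD, n = 5), where animal 1 was above all of them. At 33 h vehicle livers held 478, 309, 332, 382 and 731 TPM, and high dose livers 130, 30.5, 24.7, 47.7 and 83.3 TPM. These groups did not overlap at 33 h, and the high dose mean was 0.142 times the vehicle mean. Low dose livers measured 153, 328, 449, 161 and 311 TPM at 9 h, again a wide spread, inside the vehicle range. At 33 h they measured 368, 381, 146, 225 and 131 TPM, with animals 1 and 2 inside the vehicle range and the other 3 below it. No low dose test of this transcript passed. Its log2 fold change was 0.25 ± 0.46 at 9 h (SE, edgeR adjusted p = 0.766) and -1.22 ± 0.47 at 33 h (SE, edgeR adjusted p = 0.055). The 33 h value passed with DESeq2 (adjusted p = 0.0424), with the compared groups fitted alone (adjusted p = 0.0257), and without low dose animal 1 (adjusted p = 0.0404) or 2 (adjusted p = 0.0466). Without low dose animal 3 the 9 h value became -0.016.

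ENSCPOT00000041102.1, of 5264 bases, had the larger swing of the 2 members whose high dose groups overlapped vehicle at neither time. It measured 36.6, 54.5, 45.3, 46.9 and 37.3 TPM in vehicle livers at 9 h, and 61.5, 66.6, 62.9, 63.0 and 101 TPM at the high dose. At 33 h the vehicle values were 36.9, 46.6, 36.4, 34.9 and 28.8 TPM and the high dose values 17.6, 17.7, 20.3, 22.1 and 22.4 TPM. The low dose mean lay between the vehicle and high dose means at both times. Low dose values were 70.0, 67.4, 50.9, 65.5 and 54.3 TPM at 9 h and 29.7, 25.4, 25.4, 20.1 and 27.1 TPM at 33 h. At 9 h the low and high dose animals overlapped, and high dose animal 5, at 101 TPM, raised the high dose mean. All 5 low dose livers at 33 h were below all 5 at 9 h, the means being 61.6 ± 8.48 TPM at the earlier and 25.5 ± 3.52 TPM at the later time (SD, n = 5 each). The log2 fold change of low dose 33 h over low dose 9 h was -1.50 ± 0.15 (SE, edgeR adjusted p = 6.64e-08). Against vehicle it fell at 33 h by 0.91 ± 0.15 on the log2 scale (SE, edgeR adjusted p = 6.08e-05). At 9 h its value of 0.38 ± 0.15 did not pass (SE, edgeR adjusted p = 0.0631). It passed at 9 h with 4 alternatives, whose adjusted p ran from 0.00695 with library totals to 0.0489 with DESeq2, and without vehicle animal 2 (adjusted p = 0.0215).

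ENSCPOT00000020324.2, a short transcript of 447 bases, was the only member called against vehicle at the low dose at both times, higher at 9 h and lower at 33 h. Vehicle livers at 9 h held 78.2, 107, 95.8, 88.3 and 90.4 TPM, low dose livers 139, 159, 102, 138 and 150 TPM, and high dose livers 125, 171, 181, 165 and 187 TPM. Here 4 of the 5 low dose animals were above every vehicle animal. At 33 h vehicle livers held 98.3, 118, 70.8, 71.4 and 93.3 TPM, low dose livers 82.5, 80.0, 64.0, 69.4 and 77.4 TPM, and high dose livers 37.2, 58.3, 48.1, 56.7 and 76.2 TPM. Both treated groups overlapped vehicle at 33 h in TPM. At the low dose it rose at 9 h by a log2 fold change of 0.47 ± 0.15 (SE, edgeR adjusted p = 0.0209). It fell by 0.67 ± 0.15 on the log2 scale against vehicle at 33 h (SE, edgeR adjusted p = 0.00137) and by 1.08 ± 0.15 from low dose 9 h to low dose 33 h (SE, edgeR adjusted p = 6.13e-06). The rise was lost without vehicle animal 1 or 5 or without low dose animal 5 (adjusted p = 0.0558, 0.053 and 0.0628). The fall against vehicle was lost with library totals (log2 fold change -0.35, adjusted p = 0.054).

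ENSCPOT00000020472.2, of 393 bases, was the next most abundant member without a low dose call. It measured 7.29, 18.2, 19.4, 14.4 and 15.2 TPM in vehicle livers at 9 h, 20.8, 10.9, 21.5, 20.1 and 20.8 TPM at the low dose and 24.3, 34.2, 18, 31.0 and 19.1 TPM at the high dose. At 33 h it measured 30.5, 31.0, 16.3, 19.2 and 16.4 TPM in vehicle livers, 17.0, 18, 18, 20.7 and 11.0 TPM at the low dose and 16.0, 19.1, 2.46, 6.64 and 6.36e-09 TPM at the high dose. The treated and vehicle groups overlapped at both times and both doses. The low dose log2 fold changes were 0.26 ± 0.53 at 9 h (SE, edgeR adjusted p = 0.791) and -0.81 ± 0.53 at 33 h (SE, edgeR adjusted p = 0.29). With the compared groups fitted alone the 33 h value was -0.82 and passed (adjusted p = 0.0389).

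**Figure D2:**
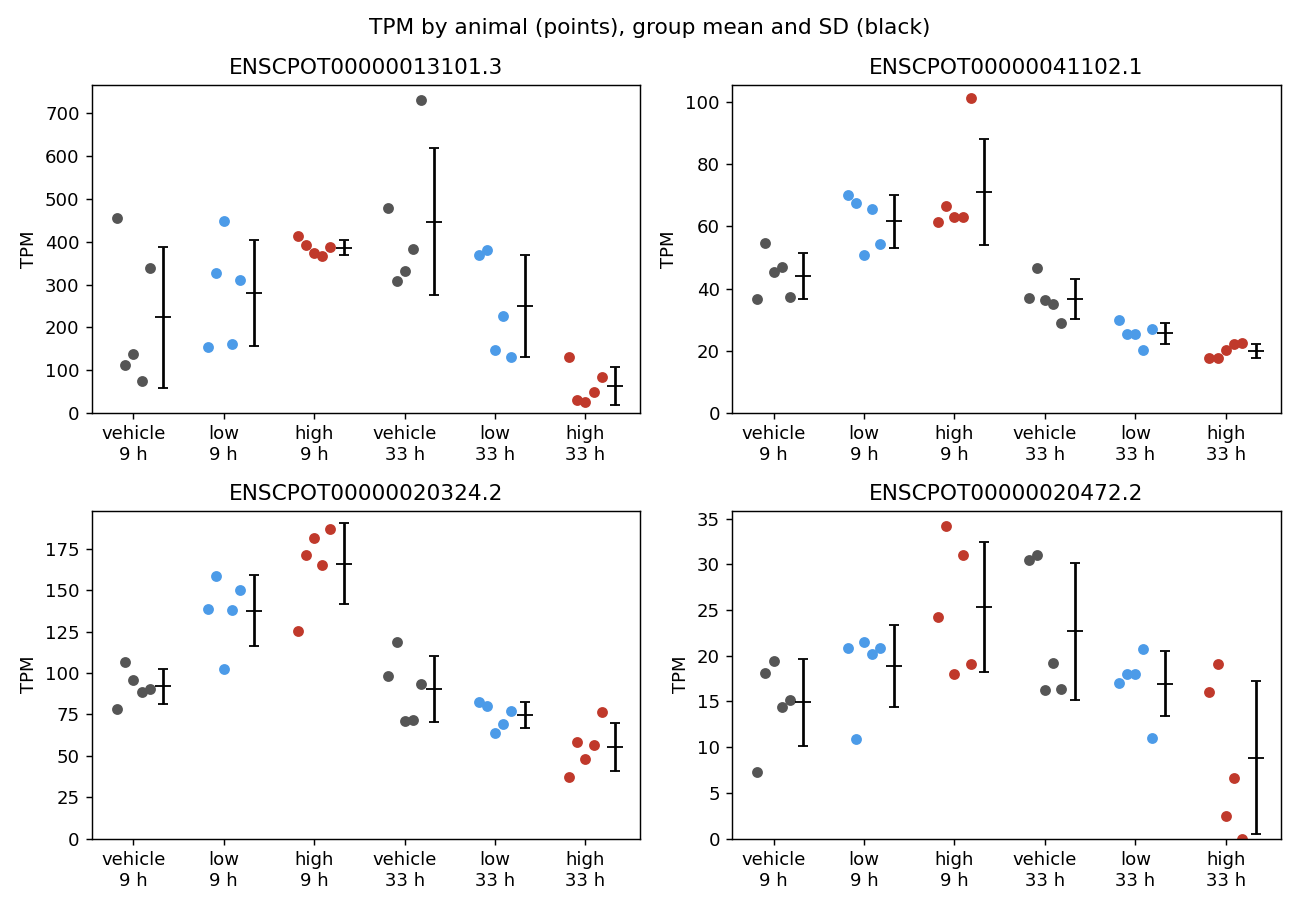
TPM of the 4 named members by animal (points) in the 6 groups, with the group mean and SD (n = 5) in black; each panel has its own axis from 0. ENSCPOT00000013101.3 spreads from 74.7 to 454 TPM among vehicle livers at 9 h, and for ENSCPOT00000041102.1 high dose animal 5 at 9 h lies at 101 TPM, above the other 4.

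At 9 h the low dose means lay on the same side as the high dose for nearly all members, but few passed the test. The low dose mean was above vehicle in 34 of 36 and reached 1.5 times vehicle in 19. Over all transcripts of at least 1 TPM, 12.2% reached 1.5 times vehicle. The median ratio was 1.53, against 1.04 over all transcripts of at least 1 TPM. The low dose mean lay between vehicle and the high dose in 25 members and above the high dose in 9. Of the 34 members that passed the count filter, 2 rose at the low dose (edgeR adjusted p under 0.05), while 13.5% of all tested transcripts were called higher. The 2 calls were ENSCPOT00000020324.2 and a transcript of 1548 bases. The latter measured 7.97, 4.70, 4.01, 5.98 and 8.37 TPM at the low dose and 1.48, 3.72, 1.89, 2.52 and 1.69 TPM in vehicle livers, with a log2 fold change of 1.35. With edgeR, DESeq2 and limma voom 0 members were called lower at 9 h, beside 11.2% of all tested transcripts with edgeR. With edgeR 0 members were lower at an unadjusted p under 0.05, beside 2858 of 13201 tested transcripts of at least 1 TPM. The count of rises was 0 without low dose animal 5 and 1 without vehicle animal 5, and other methods gave 2 to 7. The vehicle livers of this comparison also entered the choice of members, and low values in them helped a transcript to qualify. The rule therefore favours low dose means above vehicle and higher calls. The counts and ratios at 9 h cannot be read against the background as a result about the members.

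Other transcripts raised at 9 h by the high dose were called more often at the low dose. There were 1092 with a vehicle mean of at least 1 TPM that met the 9 h threshold and stayed above 0.67 at 33 h. Of the 1083 that were tested, 730 (67.4%) rose at the low dose at 9 h, beside 2 of 34 members (5.88%). Both sets were chosen with the vehicle livers at 9 h that this test uses, and low values in them favour a higher call. Neither share is therefore independent of the choice. The median high dose ratio at 9 h was 1.98 in that set and 1.78 in the members, and the median low dose ratio was 1.92 and 1.53. The median coefficient of variation among vehicle livers at 9 h was 22.1% in that set and 50.6% in the members. The part of this spread in the difference was not tested.

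**Figure D3:**
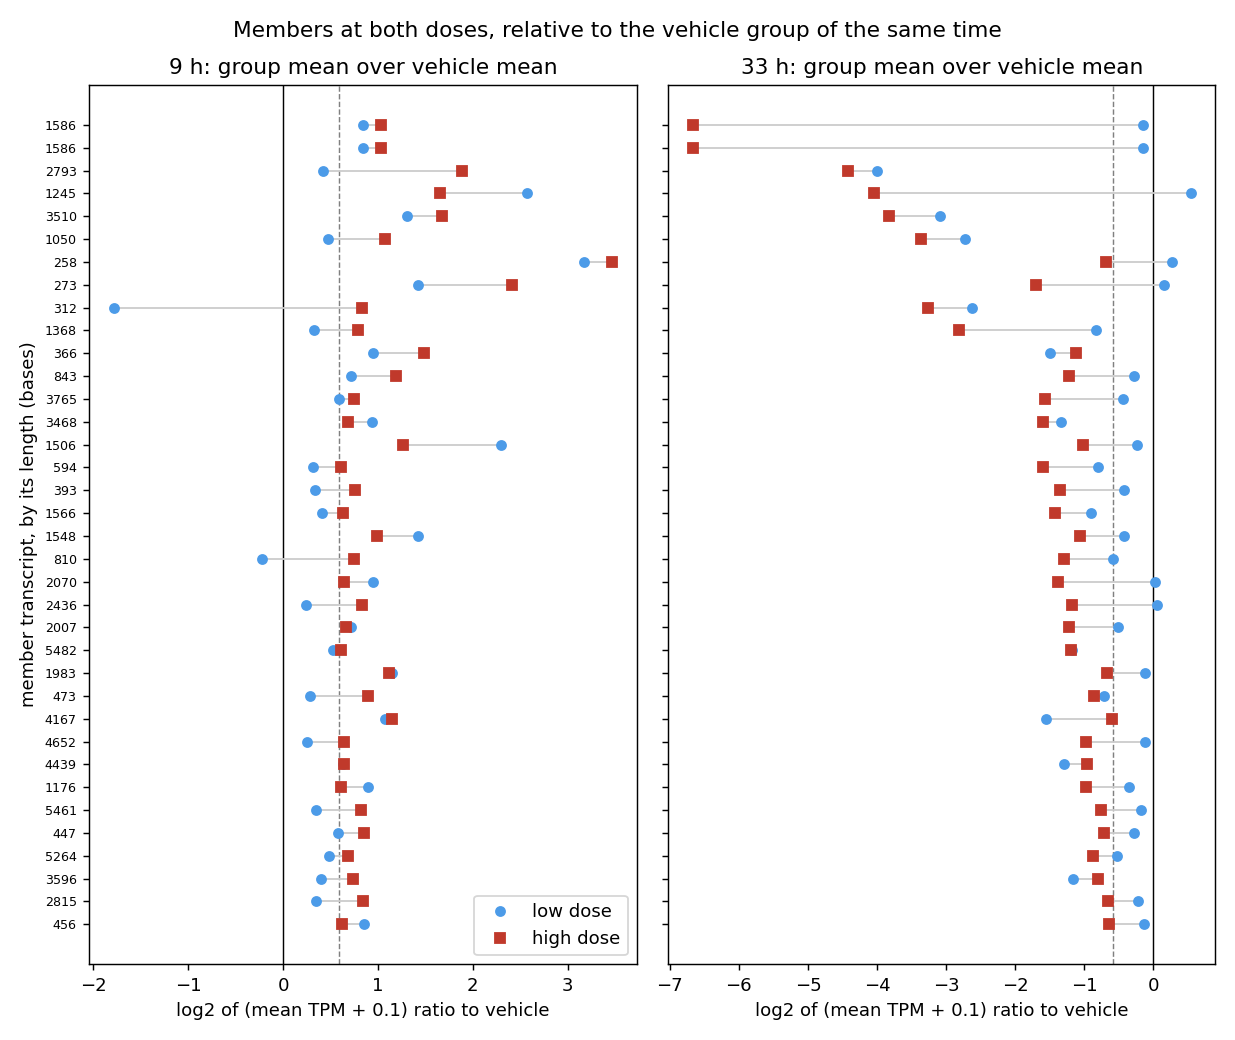
Log2 ratio of the group mean to the vehicle mean of the same time (mean TPM + 0.1) for each member, at 9 h (left) and 33 h (right), low dose as circles and high dose as squares; dashed lines mark the thresholds for the high dose, and members are ordered by the quotient of their high dose ratios and labelled by length. Low dose circles lie above 0 for 34 members at 9 h and below 0 for 31 at 33 h, mostly nearer to 0 than the squares.

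At 33 h the low dose was called lower than vehicle for many more members than it had been called higher at 9 h. The low dose mean was below vehicle in 31 of 36 and at most 0.67 times vehicle in 15, with a median ratio of 0.742 against 1.32 over all transcripts of at least 1 TPM. Over all transcripts of at least 1 TPM, 3.05% were at most 0.67 times vehicle. The low dose mean of the members lay between vehicle and the high dose in 27 and below the high dose in 4. Of 34 tested members, 14 fell (edgeR adjusted p under 0.05), where 11.4% of all tested transcripts were called lower and 14.3% higher. The log2 fold changes of the 14 ran from -4.44 to -0.51, and 0 members were called higher with edgeR, DESeq2 or limma voom or at an unadjusted p under 0.05. With library totals 11 were called lower, and the median log2 fold change of the members was -0.53 in place of -0.87. Among 1120 tested transcripts that met the 33 h threshold without the early rise, 755 (67.4%) were called lower at the low dose, beside 14 of 34 members (41.2%). All 5 low dose animals lay below all 5 vehicle animals in 6 of 36 members, beside 1.75% of all tested transcripts. The vehicle livers at 33 h are the denominator of the rule's late threshold, and high values in them helped a transcript to qualify. The rule therefore favours low dose means below vehicle, lower calls and separation below these animals. None of these values can be read against the background as a result about the members.

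In TPM the low dose means met both thresholds of the rule in 5 members. A further 14 met only the 9 h threshold, 10 only the 33 h threshold and 7 neither. The vehicle means in these ratios also chose the members, and the share of all transcripts meeting both was not counted. None of the 5 was called higher than vehicle at 9 h, and 1 of them, of 366 bases, was not tested. Among the 5 was a transcript of 3510 bases. It measured 7.82, 2.11, 25.3, 4.10 and 9.57 TPM in vehicle livers at 9 h, 22.5, 22.3, 17.1, 33.2 and 26.5 TPM at the low dose and 46.3, 27.3, 19.0, 43.5 and 21.5 TPM at the high dose. Only vehicle animal 3 reached the treated range at that time. At 33 h it measured 67.1, 64.5, 20.8, 24.7 and 67.5 TPM in vehicle livers, 13.2, 6.94, 4.0, 1.62 and 2.57 TPM at the low dose and 2.97, 8.74, 1.24, 1.36 and 2.45 TPM at the high dose. Every treated liver was below every vehicle liver at 33 h, at both doses. Its low dose log2 fold change was 1.25 ± 0.57 at 9 h and did not pass (SE, edgeR adjusted p = 0.115). At 33 h this transcript had a value of -3.45 ± 0.62 (SE, edgeR adjusted p = 0.000154). Its vehicle livers averaged 9.78 ± 9.15 TPM at the earlier time and 48.9 ± 24 TPM at the later (SD, n = 5 each), so the high dose mean at 9 h, 31.5 ± 12.6 TPM, was below the later vehicle mean.

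Low dose 33 h against low dose 9 h compared groups that held no animal of the rule, although the scaling, filter and spread of the fit came from all 30 animals. Of 34 tested members, 13 fell between these groups and 0 rose (edgeR adjusted p under 0.05), beside 12.7% of all tested transcripts called lower and 13.6% called higher. At an unadjusted edgeR p under 0.05, 18 members were lower and 0 higher. Of 13201 tested transcripts of at least 1 TPM, 2632 were lower and 3021 higher at that unadjusted threshold. DESeq2 and limma voom also called 0 members higher. The median log2 fold change over the 34 was -0.71, against 0.00 over all tested transcripts, and single members were below 0 in 27 and above 0 in 7. The 13 falls ran from -2.82 to -0.69. Fitted on the 10 low dose animals alone, 14 members fell. The count was 12 to 14 over the other methods and 12 to 13 without any single low dose animal. In TPM, all 5 low dose livers at 33 h lay below all 5 at 9 h in 12 of 36 members, beside 3.5% of all tested transcripts.

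A fall from 9 h to 33 h at the low dose was also common among other early-raised transcripts. Of the 1083 tested transcripts raised at 9 h by the high dose and not below the 33 h threshold, 554 (51.2%) were called lower in low dose livers at 33 h than at 9 h. The share was 38.2% in the members and 20% in the 1120 tested transcripts with the late fall alone. The median log2 fold changes of the 3 sets were -0.63, -0.71 and -0.12 in that order.

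**Figure D4:**
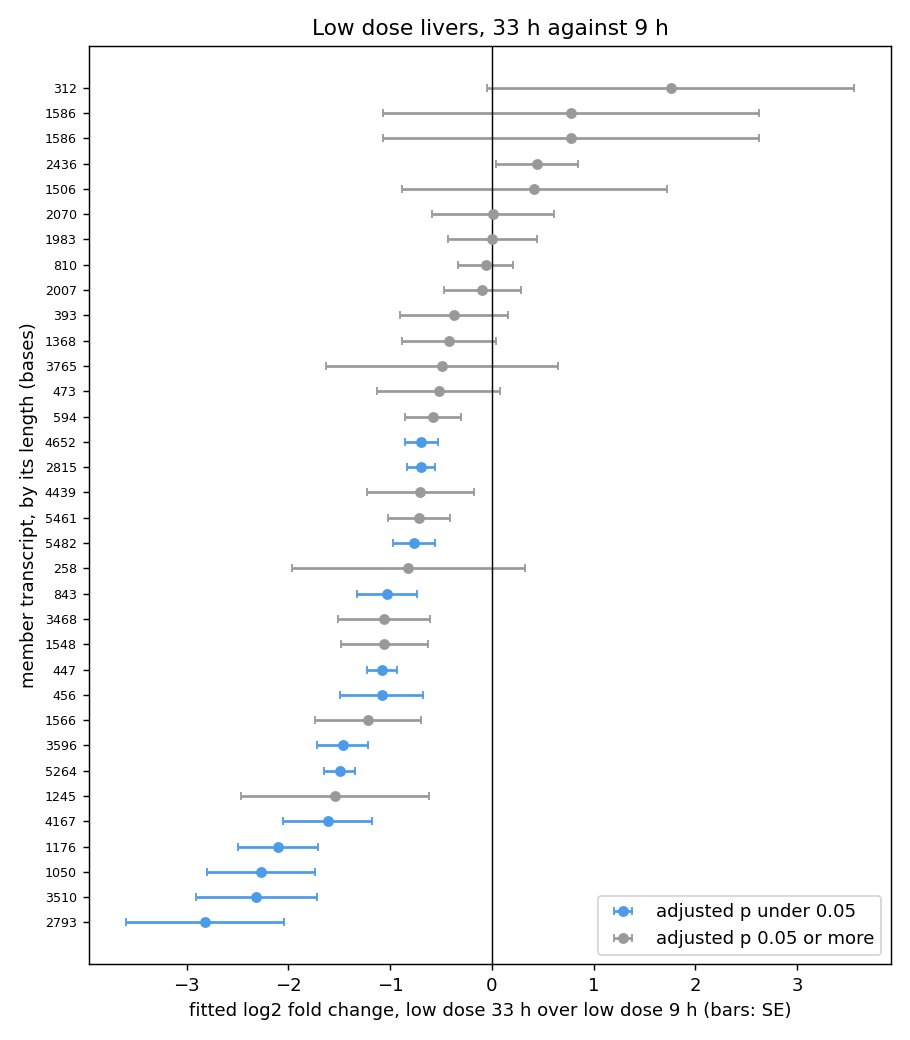
Fitted log2 fold change of low dose 33 h over low dose 9 h for the 34 tested members, labelled by length, with SE as bars; blue marks an edgeR adjusted p under 0.05. The 13 called members lie between -2.82 and -0.69, and 7 members lie above 0, none of them called.

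The falls with the smallest p-values after the named transcripts belonged to a transcript of 3596 bases and one of 1176 bases. The 3596-base transcript had whole counts in all animals. It measured 82.0, 92.9, 89.9, 101 and 115 TPM at the low dose at 9 h and 29.6, 49.6, 66.5, 28.1 and 26.5 TPM at 33 h, so the groups did not overlap. Its log2 fold change was -1.47 ± 0.25 (SE, edgeR adjusted p = 8.53e-05). At 33 h its low dose mean of 40.1 ± 17.5 TPM was below the high dose mean of 51.8 ± 21.4 TPM (SD, n = 5 each), a difference within the spread of either group. The 1176-base transcript measured 14.0, 22.4, 18.5, 16.6 and 22.0 TPM at 9 h and 5.69, 3.65, 2.46, 5.27 and 9.04 TPM at 33 h at the low dose, again without overlap, with a log2 fold change of -2.10 ± 0.40 (SE, edgeR adjusted p = 0.000252). It was not called against vehicle at either time at the low dose.

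The largest low dose fall was that of a transcript of 2793 bases. It measured 4.27, 13.0, 4.74, 16.8 and 5.28 TPM at 9 h and 1.35, 2.24, 1.46, 0.499 and 1.75 TPM at 33 h at the low dose, with a log2 fold change of -2.82 ± 0.78 (SE, edgeR adjusted p = 0.00763). Its 9 h mean at the high dose rested on few animals, with values of 3.18, 84.2, 4.79, 25.6 and 4.62 TPM beside 18.5, 5.71, 2.60, 1.93 and 3.98 TPM in vehicle livers. Only animals 2 and 4 were above the vehicle range. At 33 h every treated animal of either dose was below every vehicle animal. The high dose values there were 0.993, 1.39, 1.04, 0.979 and 0.934 TPM, and the vehicle values 38.4, 26.5, 10.2, 17.6 and 31.3 TPM.

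The low dose effect itself changed between the times for 14 of 34 members, all more negative at 33 h (edgeR adjusted p under 0.05), beside 5.56% of all tested transcripts more negative. The log2 differences of the 14 ran from -4.76 to -0.87. With edgeR, DESeq2 or limma voom 0 members were called more positive, beside 5.77% of all tested transcripts with edgeR. With edgeR 0 members were more positive at an unadjusted p under 0.05, beside 2125 of 13201 tested transcripts of at least 1 TPM. Of the 13 members that fell between the low dose groups, 10 were also among these 14. Both vehicle groups enter this comparison and the rule, and a vehicle mean that is higher at 33 h than at 9 h makes this difference more negative. The rule therefore favours calls in this direction, and their share cannot be read against the background as a result about the members.

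Many members had no call at the low dose. Of 36 members, 21 had no call against vehicle at either time, counting the 2 that were not tested. Of 34 tested, 16 were called in none of the 4 low dose tests. Most of all tested transcripts also went uncalled in each test. Calls in either direction were 24.7% at 9 h, 25.7% at 33 h, 26.3% between the low dose times and 11.3% for the difference. The share of all transcripts without any of these calls was not counted. In 2 of 36 the low dose mean at 9 h was below vehicle. The longer of these, a transcript of 810 bases, measured 6.13, 6.11, 3.57, 6.05 and 5.89 TPM at the low dose at 9 h, within the vehicle range of 2.89 to 9.49 TPM, while the high dose livers held 9.5, 10.1, 12.4, 10.2 and 12.4 TPM. Its low dose mean was 0.86 times vehicle at 9 h. It was called lower at the low dose at 33 h, with a log2 fold change of -0.98 ± 0.27 (SE, edgeR adjusted p = 0.00783). The other, a transcript of 312 bases, had a low dose mean 0.29 times vehicle at 9 h, but it was at 0 in 4 of 5 livers of the high dose group at 9 h, and its mean of 1.97 TPM there came from 1 animal at 9.86 TPM. No low dose test of it passed.

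Others were above the high dose at the low dose. A transcript of 1245 bases measured 20.2, 49.9, 73.1, 7.48 and 32.0 TPM at the low dose at 9 h and 16.5, 11.6, 9.51, 5.96 and 52.5 TPM at the high dose, beside 3.47, 0.767, 8.25, 0.00871 and 17.7 TPM in vehicle livers. The 3 groups overlapped. At 33 h its low dose livers held 10.4 to 31.0 TPM, all above the vehicle mean of 10.2 TPM, while the high dose livers held 2.26, 0.0149, 0.0159, 0.31 and 0.0318 TPM. It was not called in any low dose test. At 33 h the low dose means of 5 members were above vehicle. Of these 4 were tested and none was called.

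Some members were at 0 in some animals and above 0 in others. In 7 of 36 at least 1 vehicle library was at 0, and in 5 at least 3 of the 10 were. The share over all transcripts was not counted. Apart from the pair with identical values, these members had low vehicle means, of 1.17 to 3.01 TPM, where a 0 can rest on few reads. The pair with identical values was at 12.9 TPM in 1 vehicle liver at 9 h and at 0 in the other 4. At the low dose at 9 h it was at 11.3 and 12.2 TPM in 2 livers and at 0 in 3, and at the high dose at 13.1 and 13.8 TPM in 2 livers and at 0 in 3. At 33 h it was at 12.8, 20.5 and 16.8 TPM in 3 vehicle livers, at 16.9, 16.5 and 11.8 TPM in 3 low dose livers, and at 0 in all 5 high dose livers. Values of this pair were thus either 0 or above 10 TPM, in both treated and untreated animals.

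Spread between animals was wide in the members. The median coefficient of variation was 34.6% to 52.1% over the 6 groups, against 14.2% to 18.2% over all transcripts of at least 1 TPM. In low dose livers, which the rule did not use, it was 34.6% at 9 h and 41.8% at 33 h, against 14.2% and 18.2%. In 35 of 214 member groups with any spread (16.4%) the highest or lowest animal stood apart by Dixon's test, against 5.74% over all transcripts of at least 1 TPM and about 1 in 20 by chance. Most of these groups also chose the members, and 1 extreme animal there can help a transcript to qualify. The rule therefore favours such animals, and this share cannot be read against the background or against chance. High dose animal 5 at 9 h was the highest of its group in 16 of 36 members, and the other animals of that group in 2 to 7. High values in this group helped a transcript to qualify, and without animal 5 24 of the 36 met the rule. The share over all transcripts was not counted. When each of the 20 vehicle and high dose animals was left out in turn, 8 of 36 members met the rule every time. The number of transcripts meeting it ran from 29 to 56, the latter without vehicle animal 1 at 9 h.

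Summed over the 36 members, TPM was 636 ± 158 in vehicle, 909 ± 135 in low dose and 1147 ± 96.2 in high dose livers at 9 h (SD, n = 5 each). At 33 h it was 1021 ± 235, 608 ± 148 and 313 ± 20.7 TPM (SD, n = 5 each). Without the most abundant member the sums were 412 ± 41.6, 629 ± 36.1 and 760 ± 96.9 TPM at 9 h and 574 ± 102, 357 ± 44.1 and 250 ± 24.7 TPM at 33 h (SD, n = 5 each). The low dose sum stood between vehicle and high dose at both times. From 9 h to 33 h the low dose sum was lower, and the vehicle sum was higher. The vehicle and high dose means chose the members, so their sums and the vehicle rise are a description. The rule also favours a low dose sum between them, and that place cannot be read as a result about dose. Only the low dose sums, 909 and 608 TPM, hold no animal of the rule.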

How the data were processed

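Per the labels' protocols, stranded poly-A libraries from 30 livers were read from both ends. The authors quantified them with kallisto 0.42.4 (per the submitters' processing notes), against a transcript set not given in the sources used here. For every animal the deposited file lists estimated counts without normalization, TPM as computed by the authors, and transcript lengths. Reads shared by similar transcripts are divided, so a change in 1 transcript can be a change in that division.

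Members were found from deposited TPM. The rule, the lists and the tests were chosen with earlier results of these data known. Estimated counts were rounded and fitted with edgeR 4.0.16 (R 4.3.3): filterByExpr, TMM, 1 coefficient per group, all 30 animals, robust quasi-likelihood test. Adjusted p-values are Benjamini-Hochberg over 18239 tested transcripts; 34 of 36 members passed the filter, the others being 366 and 273 bases long. High dose contrasts chose the members and were not tested. TMM factors averaged 0.869 to 0.903 in vehicle livers and 1.32 in high dose livers at 33 h; the members' median high dose log2 ratio there was -1.90 with TMM and -1.30 with library totals. The code was tested on simulated data.

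Replicates are numbered in accession order; the series design describes 30 animals, and the labels give no batch. Named members are the most abundant, the largest swing without overlap, the lowest p for a fall between low dose groups and the most abundant without a low dose call against vehicle or between times, the next in rank taking a place already filled; those named by length were chosen after seeing values. Alternatives were DESeq2 1.42.0, limma 3.58.1 voom, other scalings and filters, the compared groups alone, changed rules, and each animal left out. Gene lists and cell type markers need gene names and were not used.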

Additional observations from a re-analysis of the deposited data

Results flagged for a closer look

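In ENSCPOT00000041102.1, high dose animal 5 at 9 h stood apart at 101 TPM from the other 4 animals (61.5 to 66.6 TPM). In ENSCPOT00000020472.2, low dose animal 2 at 9 h stood apart at 10.9 TPM from the other 4 (20.1 to 21.5 TPM). These are 2 of 30 groups examined, where chance gives about 1 in 20.

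The low dose effect differed between the times for ENSCPOT00000041102.1, by -1.29 ± 0.21 on the log2 scale (SE, edgeR adjusted p = 0.000276), and for ENSCPOT00000020324.2, by -1.14 ± 0.21 (SE, edgeR adjusted p = 0.000766). Both were more negative at 33 h, and the vehicle groups of both times, which chose the members, enter these differences.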

How the results depend on the processing

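The number of members depended most on the rule. It was 36, and 19 with 1 added to the means, 10 with folds of 2 and 0.5, 21 with a vehicle mean of at least 5 TPM, 58 with medians (19 of them shared), 91 with TPM divided by TMM factors (including all 36), and 29 to 56 without single animals. Rises at the low dose at 9 h numbered 2, but 5 with library totals, 6 with the compared groups alone, 4 with DESeq2, 7 with limma voom, and 0 to 3 without single animals. The 3 other low dose counts stayed within 1.5 times under all alternatives run, and without single animals were 12 to 13 (33 h against 9 h), 12 to 16 (33 h against vehicle) and 12 to 16 (the difference between times). With library totals the median of all tested transcripts moved by 0.14 for low dose 33 h against 9 h, and 72.6% of all calls were higher, against 51.7% with TMM; 12 members were still called lower. For the low dose against vehicle, higher calls went from 54.8% to 76.1% at 9 h and from 55.6% to 90.5% at 33 h. The 9 h value of ENSCPOT00000013101.3 ran from -0.016 without low dose animal 3, a reversal, to 0.72 without vehicle animal 1. The cause of these changes was not tested. No paired analysis was run, because by the series design each liver came from a different animal and no animal was shared between groups. The labels also give no replicate numbers. Members at a few TPM rest on few reads per library, which limits single values there.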
